A study of Mus musculus with 18 samples.

Results

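Enzymes that make serine, glycine, folate-bound 1-carbon units and asparagine were measured in the lacrimal gland (LG) of 2 mouse strains. The group holds 10 genes chosen by name, Phgdh, Psat1, Psph, Shmt1, Shmt2, Mthfd1, Mthfd2, Mthfd1l, Aldh1l2 and Asns, of 54232 genes in the count table. All 10 passed the filter on low counts in every comparison. Bulk RNA-seq of the LG was made from male mice at 2 (2M), 4 (4M) and 6 months (6M), from 3 mice per strain at each age. The control strain was BALB/cJ (BALB/c). The disease strain was NOD.B10Sn-H2b/J (NOD.H-2b), a nonobese diabetic (NOD) strain that carries the H2b haplotype in place of its own MHC. The authors describe it as resistant to diabetes, and it is used as a model of Sjögren's syndrome. No mouse was treated. BALB/c is an unrelated inbred strain and not a congenic partner, so effects of disease and of genetic background cannot be told apart.

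De novo serine synthesis branches from glycolysis. Phgdh oxidizes 3-phosphoglycerate, Psat1 transfers an amino group to the product, and Psph removes the phosphate to release serine. The Shmt enzymes split serine into glycine and a 1-carbon unit held on tetrahydrofolate, and the Mthfd enzymes and Aldh1l2 interconvert or oxidize that unit, in the cytosol (Shmt1, Mthfd1) or in mitochondria (Shmt2, Mthfd2, Mthfd1l, Aldh1l2). Asns makes asparagine from aspartate and glutamine. Many of these genes are known targets of the transcription factor ATF4, which acts in the amino acid response and the unfolded protein response, and the gland secretes large amounts of protein.

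On GRCm38 the serine genes lie at chr3:98313170-98339990 (Phgdh, ENSMUSG00000053398), chr19:15904678-15947337 (Psat1, ENSMUSG00000024640) and chr5:129765558-129787449 (Psph, ENSMUSG00000029446), all on the minus strand. The cytosolic genes are Shmt1 (ENSMUSG00000020534), at chr11:60788104-60811718 on the minus strand, and Mthfd1 (ENSMUSG00000021048), at chr12:76255298-76319803 on the plus strand. Of the mitochondrial genes, Shmt2 (ENSMUSG00000025403, chr10:127517123-127522444), Mthfd2 (ENSMUSG00000005667, chr6:83305691-83325908) and Aldh1l2 (ENSMUSG00000020256, chr10:83487450-83534140) lie on the minus strand and Mthfd1l (ENSMUSG00000040675, chr10:3973118-4167081) on the plus strand. Asns (ENSMUSG00000029752) lies at chr6:7675169-7693254 on the minus strand. All 10 are annotated as protein coding, and counts cover their exons. How the counting treated reads that match several places, such as those shared with the pseudogene Phgdh-ps1, is not given in the sources used here.

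Promoters in the RefSeq table (GRCm38.p6, 250 bases before to 50 after each start) were found for 9 of the 10 genes. They were searched on both strands for 3 short motifs. TGATGNAA, the composite element of C/EBP and ATF factors, was present in 1 of the 9 genes, Asns, and in 3.97% of all 32851 promoters of the table. CCAAT was present in 6 of the 9 genes (Phgdh, Psat1, Psph, Shmt1, Mthfd1 and Mthfd2) and in 37.4% of all promoters. CACGTG, an E-box, was present in none of the 9 and in 7.15% of all promoters. A match describes the letters in the window and does not show binding. The starts are those of the RefSeq table and can differ from the ends of the gene spans given above. The Asns and Mthfd2 windows below lie inside those spans. The 3 windows of 30 bases printed here hold the match nearest before the start of Asns, Phgdh and Mthfd2, the genes with the highest levels per exon length, 5′ to 3′ on the minus strand, with the motif in capitals.
Asns, chr6:7693214-7693243, motif 23 bases before the start: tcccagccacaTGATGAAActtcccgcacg
Phgdh, chr3:98339975-98340004, motif 23 bases before the start: aagcatttctgaCCAATcaaaaggagactg
Mthfd2, chr6:83317609-83317638, motif 22 bases before the start: ccggctcaggggCCAATgggcgcgcgggag

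Total counts ranged from 49480781 to 103936830 per mouse, and BALB/c 6M replicate 1 was the deepest. Pairs of replicates differed by more than sampling noise, at 16.4 to 83.4 for the chi-square per gene. The labels give each mouse a replicate number and do not say how the mice were related, so p-values measure the spread between these 3 mice. Epithelial markers such as Epcam and Cdh1 were expressed in all mice and none of the 12 was at 0. The 7 acinar markers, which include the main secretory products, summed to 90536 to 151978 CPM. Markers of adipocytes and skeletal muscle summed to at most 2.04 and 1.54 CPM in any mouse. The 5 salivary gland genes summed to 1.86 to 13.2 CPM, with Smr3a at 0 in every group and Amy1 and Smr2 lower in NOD.H-2b at 4M.

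Expression differed widely among the enzymes when levels were set per exon length, as RPKM (CPM per kilobase of exon). In BALB/c LGs at 2M, Asns was highest (35.3 ± 1.05 RPKM, SD, n = 3), ahead of Mthfd2 (26.1 ± 1.11) and Phgdh (24.0 ± 0.553). Aldh1l2 (7.98 ± 0.234), Mthfd1 (6.96 ± 0.367) and Shmt2 (3.56 ± 0.189) followed, each below every mouse of the one before. The remaining steps of serine synthesis were low, at 1.23 ± 0.0774 RPKM for Psph and 1.14 ± 0.269 for Psat1, and these overlapped, as did Psat1 and Mthfd1l (0.856 ± 0.0812). Shmt1 was lowest (0.330 ± 0.0502). The first enzyme of serine synthesis thus stood far above the later steps on the RPKM scale.

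In NOD.H-2b LGs at 6M, which differ from BALB/c at 2M in both strain and age, the order was different. Mthfd2 (14.7 ± 2.85 RPKM), Phgdh (12.2 ± 1.84) and Asns (11.4 ± 2.37) overlapped each other, so no single gene led. Mthfd1 (4.90 ± 0.217) and Shmt2 (3.36 ± 0.187) stood above Aldh1l2 (1.93 ± 0.888), which had stood above both in BALB/c at 2M. Aldh1l2 overlapped with Mthfd1l (1.51 ± 0.186), and Psph (0.858 ± 0.0549), Psat1 (0.738 ± 0.180) and Shmt1 (0.672 ± 0.155) overlapped at the bottom. Part of this order was present in other groups. In BALB/c at 4M, Mthfd1 (6.84 ± 0.379) stood above Aldh1l2 (5.42 ± 0.782) without overlap, and Asns overlapped with Mthfd2. In NOD.H-2b at 2M, Mthfd1 (6.00 ± 0.282) also stood above Aldh1l2 (4.21 ± 0.535) without overlap. In BALB/c at 6M, Asns stood first without overlap, and Aldh1l2 overlapped with Mthfd1.

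**Figure D1:**
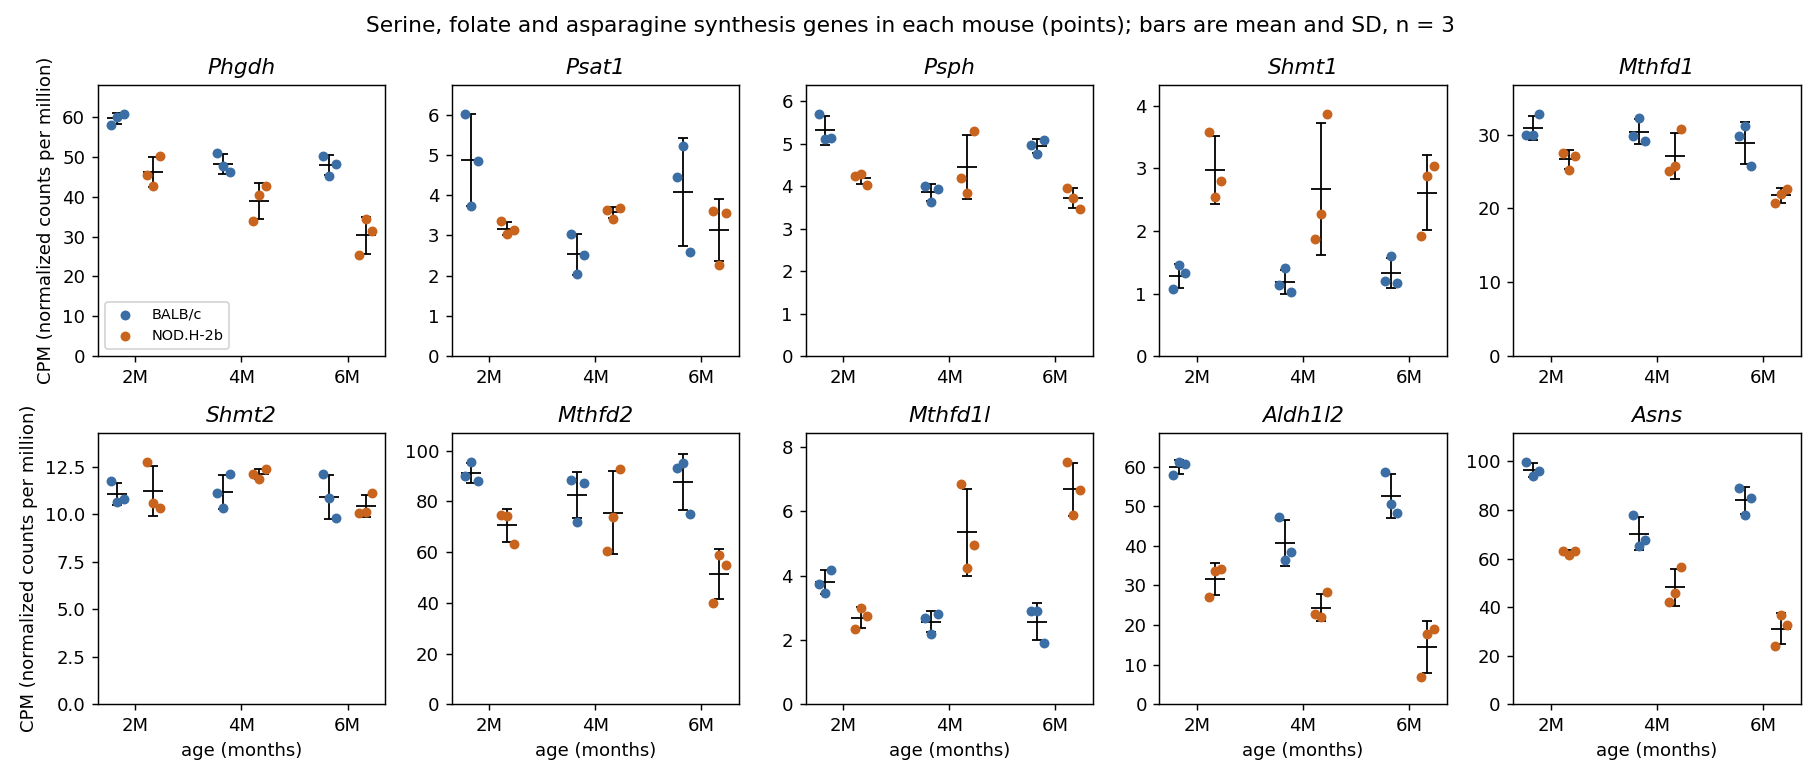
Level of each of the 10 genes in every mouse, as normalized counts (CPM) on a linear axis from 0, against age; points are mice, bars the mean and SD of 3 mice. Asns and Aldh1l2 lie lower in every NOD.H-2b mouse than in any BALB/c mouse of the same age, Shmt1 lies higher, and Mthfd1l crosses from lower at 2M to higher at 4M and 6M.

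To find which of these enzymes differed between the strains, NOD.H-2b was compared with BALB/c at each age in the edgeR quasi-likelihood test after Benjamini-Hochberg adjustment over all genes tested (FDR). Genes with an FDR under 0.05 passed, and those that also changed at least 2-fold are called DEGs. At 2M, 7 of the 10 genes were lower in NOD.H-2b and 1 was higher, where 17.2% of all genes tested were lower and 22.5% higher. At 4M, 3 genes were lower and 2 higher, against 19.2% and 23.4% of all genes. At 6M, 6 genes were lower and 2 higher, against 25.8% and 28.6%. Without BALB/c 2M replicate 1 the count at 2M was 5 in place of 8. The share of these genes that was lower was thus above that of all genes at 2M and 6M and near it at 4M. The 10 genes were chosen with earlier results of these data known, so this comparison is a description and not a test. The groups did not overlap for 9 genes at 2M, 6 at 4M and 8 at 6M, where 53.4%, 55.4% and 64.6% of all genes did not overlap. DEGs numbered 1 at 2M (Shmt1), 2 at 4M (Shmt1 and Mthfd1l) and 4 at 6M (Shmt1, Mthfd1l, Asns and Aldh1l2), against 15.8%, 20.3% and 24.8% of all genes. Bulk counts cannot tell fewer cells of a type from less RNA per cell.

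Asns, the asparagine synthetase, was lower in NOD.H-2b at all 3 ages. At 2M its CPM was 99.8, 94.2 and 96.0 in the BALB/c mice and 63.3, 61.4 and 62.9 in the NOD.H-2b mice. At 4M it was 78.1, 65.2 and 67.6 against 42.3, 45.6 and 56.6, and at 6M 89.0, 77.9 and 85.1 against 24.0, 36.7 and 32.6. The strains did not overlap at any age, and the lowest value of all 18 mice was in NOD.H-2b 6M replicate 1. The log2 fold change was -0.59 (SE 0.05) at 2M, -0.54 (SE 0.11) at 4M and -1.40 (SE 0.15) at 6M, with FDRs of 2.29e-06, 0.00483 and 6.04e-05 in the edgeR quasi-likelihood test after Benjamini-Hochberg adjustment. At 6M the BALB/c level was 2.64-fold that of NOD.H-2b. These calls held without any 1 mouse.

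Phgdh, the first and rate-limiting step of serine synthesis, was lower at each age by a smaller amount. At 2M its CPM was 58.1, 60.0 and 60.7 in BALB/c and 45.3, 42.8 and 50.2 in NOD.H-2b. At 4M it was 51.1, 47.6 and 46.1 against 33.9, 40.3 and 42.7, and at 6M 50.1, 45.2 and 48.2 against 25.3, 34.4 and 31.3. Every NOD.H-2b mouse lay below every BALB/c mouse of its age. The log2 fold change was -0.33 (SE 0.06) at 2M, -0.30 (SE 0.09) at 4M and -0.62 (SE 0.11) at 6M, with FDRs of 0.00151, 0.0226 and 0.000928 in the edgeR quasi-likelihood test after Benjamini-Hochberg adjustment. The 4M call was lost without BALB/c replicate 1 (FDR 0.0982 in edgeR with Benjamini-Hochberg adjustment) or without BALB/c replicate 2 (FDR 0.0595).

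The later serine enzymes did not follow Phgdh at each age. Psat1, the aminotransferase, passed at 2M only, with 6.02, 3.73 and 4.85 CPM in BALB/c against 3.35, 3.03 and 3.13 in NOD.H-2b. Its log2 fold change there was -0.58 (SE 0.17, FDR 0.0183 in edgeR with Benjamini-Hochberg adjustment), and the call was lost without BALB/c 2M replicate 1, the highest mouse (FDR 0.0967). At 4M the values were 3.04, 2.03 and 2.52 CPM against 3.63, 3.41 and 3.68, so that NOD.H-2b lay above BALB/c without overlap, at a log2 fold change of 0.50 (SE 0.18) that did not pass (FDR 0.0508 in edgeR with Benjamini-Hochberg adjustment). Without BALB/c 4M replicate 1 the FDR at 4M was 0.0363, with at least 10 counts in every sample it was 0.0406, and in DESeq2 0.0481. At 6M the strains overlapped and the log2 fold change was -0.35 (SE 0.27), which passed only without BALB/c 6M replicate 3 (FDR 0.0451 in edgeR with Benjamini-Hochberg adjustment).

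Psph, the phosphatase, had 5.69, 5.10 and 5.13 CPM in BALB/c and 4.24, 4.28 and 4.02 in NOD.H-2b at 2M. At 4M the values overlapped, at 4.00, 3.62 and 3.94 against 4.19, 3.85 and 5.29 CPM. At 6M they were 4.97, 4.75 and 5.07 against 3.95, 3.73 and 3.47 CPM. NOD.H-2b lay below BALB/c without overlap at 2M and 6M. Only the 6M difference passed (log2 fold change -0.37, SE 0.13, FDR 0.0352 in edgeR with Benjamini-Hochberg adjustment), and it was lost without any 1 mouse other than NOD.H-2b 6M replicate 1, with FDRs from 0.0580 to 0.126. It was also lost with no filter on low counts (FDR 0.0829) and with at least 10 counts in every sample (FDR 0.0589). At 2M the log2 fold change was -0.30 (SE 0.11) with an FDR of 0.0538, and it passed with DESeq2 size factors or the upper quartile in edgeR and in one fit of all 18 mice (FDRs of 0.0472, 0.0468 and 0.0308). Of the exon bases of Psph, 10.4% overlap with Cct6a on the other strand, a chaperonin subunit gene that was also lower in NOD.H-2b (39.8 and 25.0 CPM at 2M, 39.5 and 27.9 at 6M, as means of BALB/c and NOD.H-2b). The strand setting of the counting is not given in the sources used here, so reads in that stretch cannot be told apart.

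Shmt1, the cytosolic enzyme that splits serine, was the exception among the cytosolic genes and was higher in NOD.H-2b at all 3 ages. Its CPM was 1.07, 1.45 and 1.32 in BALB/c against 3.58, 2.54 and 2.80 in NOD.H-2b at 2M. At 4M it was 1.14, 1.40 and 1.03 against 1.88, 2.27 and 3.86, and at 6M 1.20, 1.60 and 1.17 against 1.92, 2.87 and 3.03. The strains never overlapped, and the NOD.H-2b mice varied more. NOD.H-2b was 2.38-fold higher at 2M, 2.25-fold at 4M and 2.02-fold at 6M, with log2 fold changes of 1.25 (SE 0.20), 1.17 (SE 0.29) and 1.01 (SE 0.24). The FDRs were 0.000491, 0.00934 and 0.00496 in the edgeR quasi-likelihood test after Benjamini-Hochberg adjustment, and they passed without any 1 mouse. Its level remained the lowest or close to the lowest of the 10 genes per exon length. It shares 4.74% of its exon bases with Smcr8 on the other strand, whose mean lay between 35.0 and 39.4 CPM in all 6 groups.

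Mthfd1, the trifunctional cytosolic enzyme, differed little at 2M and 4M and was lower in NOD.H-2b at 6M. At 2M the CPM was 30.0, 29.9 and 32.8 in BALB/c against 27.6, 25.2 and 27.1 in NOD.H-2b. At 6M it was 29.8, 31.1 and 25.7 against 20.7, 21.9 and 22.7, while the strains overlapped at 4M. The 6M log2 fold change of -0.38 (SE 0.09) passed with an FDR of 0.00576 in edgeR with Benjamini-Hochberg adjustment. That at 2M was -0.17 (SE 0.06, FDR 0.0441) and was lost without any 1 of BALB/c 2M replicates 1, 2 and 3 or NOD.H-2b 2M replicate 2 (FDRs from 0.0643 to 0.169), with at least 10 counts in every sample (FDR 0.0621) and in one fit of all 18 mice (FDR 0.0511). At 4M the log2 fold change was -0.16 (SE 0.09, FDR 0.208), and it passed without NOD.H-2b 4M replicate 3 (FDR 0.0337).

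The mitochondrial genes went in different directions. Shmt2, the mitochondrial counterpart of Shmt1, had between 9.80 and 12.8 CPM in all 18 mice, and the strains overlapped at each age. Its log2 fold change was 0.06 (SE 0.09) at 2M, 0.12 (SE 0.10) at 4M and -0.03 (SE 0.11) at 6M, with FDRs of 0.657, 0.358 and 0.808 in the edgeR quasi-likelihood test after Benjamini-Hochberg adjustment. No difference in Shmt2 was detectable with 3 mice a group.

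Mthfd2, which oxidizes the 1-carbon unit in mitochondria, had 89.9, 95.5 and 88.1 CPM in BALB/c at 2M and 74.5, 74.3 and 63.0 in NOD.H-2b. At 4M the strains overlapped widely, at 88.3, 71.9 and 87.4 against 60.3, 73.7 and 92.8 CPM. At 6M the values were 93.2, 95.0 and 74.8 against 40.0, 58.8 and 55.0 CPM. NOD.H-2b lay below BALB/c without overlap at 2M and 6M. The log2 fold change was -0.33 (SE 0.07, FDR 0.00215) at 2M, -0.12 (SE 0.16, FDR 0.591) at 4M and -0.74 (SE 0.16, FDR 0.00387) at 6M in edgeR with Benjamini-Hochberg adjustment. In one fit of all 18 mice the 2M difference did not pass (FDR 0.0853).

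Mthfd1l, which releases formate from mitochondria, was the only one of the 10 genes called in opposite directions at different ages. At 2M it had 3.75, 3.46 and 4.18 CPM in BALB/c against 2.33, 2.98 and 2.75 in NOD.H-2b. At 4M it had 2.67, 2.19 and 2.82 against 6.86, 4.23 and 4.95, and at 6M 2.90, 2.90 and 1.92 against 7.53, 5.88 and 6.64. The strains did not overlap at any age, with NOD.H-2b below at 2M and above at 4M and 6M. The log2 fold change was -0.45 (SE 0.15, FDR 0.0356) at 2M, 1.07 (SE 0.21, FDR 0.00227) at 4M and 1.40 (SE 0.19, FDR 0.000146) at 6M in edgeR with Benjamini-Hochberg adjustment. At 6M NOD.H-2b was 2.64-fold higher. The 2M call was lost without any 1 of BALB/c 2M replicates 1 and 3 or NOD.H-2b 2M replicates 1 and 3 (FDRs from 0.0601 to 0.128), and those at 4M and 6M held without any 1 mouse.

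Aldh1l2, the mitochondrial enzyme that oxidizes 10-formyltetrahydrofolate and yields NADPH, had the largest log2 difference of the 10 genes at 6M. Its CPM at 2M was 57.9, 61.2 and 60.7 in BALB/c against 27.0, 33.6 and 34.2 in NOD.H-2b. At 4M it was 47.3, 36.3 and 38.4 against 22.8, 22.0 and 28.3, and at 6M 58.7, 50.6 and 48.2 against 6.82, 17.7 and 18.9. The strains did not overlap at any age, and NOD.H-2b 6M replicate 1 stood well below the other two mice of its group. The log2 fold change was -0.88 (SE 0.09, FDR 4.75e-05) at 2M, -0.73 (SE 0.13, FDR 0.00153) at 4M and -1.83 (SE 0.42, FDR 0.0167) at 6M in edgeR with Benjamini-Hochberg adjustment. The 6M call was lost without BALB/c 6M replicate 1 (log2 fold change -1.74, FDR 0.0501) or without NOD.H-2b 6M replicate 2 (FDR 0.0533), and held without NOD.H-2b 6M replicate 1. D10Wsu102e, on the other strand, covers 14.1% of the exon bases of Aldh1l2 and moved the other way, from means of 25.7 and 27.0 CPM in BALB/c at 4M and 6M to 50.3 and 56.4 in NOD.H-2b.

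**Figure D2:**
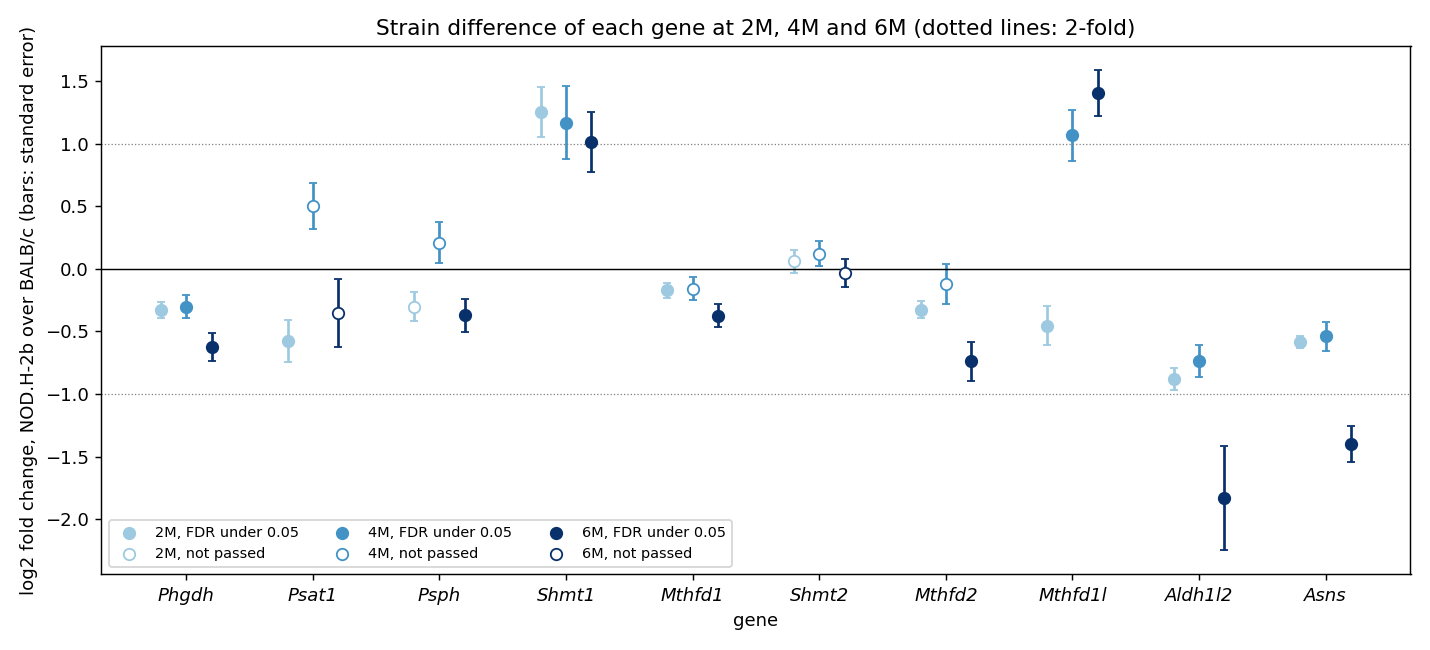
Log2 fold change of NOD.H-2b over BALB/c for each gene at 2M, 4M and 6M, with standard errors as bars; filled points passed at an FDR under 0.05, open points did not, and dotted lines mark 2-fold. Asns, Aldh1l2 and Phgdh lie below 0 at all ages, Shmt1 lies above 0, and Mthfd1l lies at -0.45 at 2M and at 1.40 at 6M.

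Whether the strain difference itself changed with age was tested in a fit of all 18 mice. From 2M to 4M, Mthfd1l alone of the 10 genes passed, with a change of 1.56 (SE 0.27) on the log2 scale and an FDR of 0.00639 in edgeR with Benjamini-Hochberg adjustment, where 0.696% of all genes passed upward and 0.978% downward. Psat1 changed by 1.11 (SE 0.33, FDR 0.0885) and Psph by 0.55 (SE 0.17, FDR 0.107), and neither passed. Psat1 passed too without BALB/c 6M replicate 3, which brought the count to 2. From 2M to 6M, Mthfd1l passed upward (1.87, SE 0.27, FDR 0.000683) and Asns downward (-0.81, SE 0.18, FDR 0.00786) in edgeR with Benjamini-Hochberg adjustment, against 7.04% of all genes upward and 9.09% downward. Aldh1l2 had a larger change than Asns and a larger error (-0.95, SE 0.38, FDR 0.111). The changes of Phgdh (-0.29, SE 0.14, FDR 0.157) and Mthfd2 (-0.41, SE 0.23, FDR 0.236) did not pass either. The wider 6M than 2M difference of Phgdh, Mthfd2 and Aldh1l2 was therefore not shown to be a change with age, whereas those of Mthfd1l and Asns passed on the scale of counts.

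Within BALB/c, expression of the serine enzymes, Asns and Aldh1l2 was lower at 4M than at 2M. Of the 10 genes, 6 fell from 2M to 4M and none rose, where 5.01% of all genes fell and 6.1% rose. Asns changed by -0.46 (SE 0.06, FDR 0.000936), Phgdh by -0.30 (SE 0.05, FDR 0.00259), Psat1 by -0.94 (SE 0.20, FDR 0.0103) and Aldh1l2 by -0.56 (SE 0.09, FDR 0.00579) on the log2 scale in edgeR with Benjamini-Hochberg adjustment. For all 6 genes the mice of 2M and 4M did not overlap, where 16.1% of all genes lay lower without overlap. Psph (-0.46, SE 0.12, FDR 0.0272) and Mthfd1l (-0.56, SE 0.15, FDR 0.0355) also fell, and these calls depended on single mice. The Psph call was lost without any 1 of BALB/c 2M replicates 1, 2 and 3 or 4M replicate 2 (FDRs from 0.0641 to 0.105), and that of Mthfd1l without any 1 of the 6 mice other than 4M replicate 3 (FDRs from 0.0589 to 0.144). One fit of all 18 mice called Psat1, Psph and Asns, and Phgdh (FDR 0.0782), Mthfd1l (FDR 0.0962) and Aldh1l2 (FDR 0.272) did not pass in it.

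From 4M to 6M in BALB/c, no gene of the 10 passed in edgeR with Benjamini-Hochberg adjustment, where 0.307% of all genes did. At an unadjusted p under 0.05, 4 did, all upward: Asns (70.3 to 84.0 CPM), Aldh1l2 (40.7 to 52.5), Psat1 (2.53 to 4.09) and Psph (3.85 to 4.93). DESeq2 called 1 gene, Aldh1l2, and leaving out BALB/c 6M replicate 3 gave 1 call in edgeR, Psat1. From 2M to 6M, Phgdh alone fell, by 0.32 on the log2 scale (SE 0.05, FDR 0.00641 in edgeR with Benjamini-Hochberg adjustment), where 2.13% of all genes fell. Without BALB/c 6M replicate 1 the count was 3 (Phgdh, Aldh1l2 and Asns), without 6M replicate 3 it was 2 (Phgdh and Asns), and in one fit of all 18 mice it was 0. The same BALB/c mice serve in the comparisons with NOD.H-2b, so these results and the strain differences are not independent.

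Within NOD.H-2b, 1 gene rose and 1 fell from 2M to 4M, where 10.3% of all genes rose and 5.48% fell. Mthfd1l rose from a mean of 2.69 to 5.35 CPM (log2 fold change 0.99, SE 0.20, FDR 0.0174) and Asns fell from 62.5 to 48.2 CPM (-0.38, SE 0.10, FDR 0.0361) in edgeR with Benjamini-Hochberg adjustment. The Mthfd1l call was lost without NOD.H-2b 2M replicate 1 (FDR 0.0572) or 2M replicate 3 (FDR 0.0711). The Asns call was lost without any 1 mouse other than 4M replicate 3 (FDRs from 0.0583 to 0.118). Without 2M replicate 3 neither passed, and without 2M replicate 1, where Aldh1l2 passed, or without 2M replicate 2, 4M replicate 1 or 4M replicate 2, the count was 1. From 4M to 6M none of the 10 genes passed in edgeR with Benjamini-Hochberg adjustment or in DESeq2, where 0.00555% of all genes did, and 4 (Asns, Phgdh, Mthfd1 and Mthfd2) had an unadjusted p under 0.05, all lower at 6M.

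Over the whole interval from 2M to 6M in NOD.H-2b, 4 genes fell and 1 rose, where 19.4% of all genes fell and 20.7% rose. Asns fell by 1.03 on the log2 scale (SE 0.15, FDR 0.00229), and the 2M level was 2.04-fold the 6M level. Phgdh fell by 0.62 (SE 0.12, FDR 0.00486), Mthfd1 by 0.31 (SE 0.07, FDR 0.00972) and Mthfd2 by 0.48 (SE 0.15, FDR 0.0360), and Mthfd1l rose 2.45-fold (FDR 0.000726), all in edgeR with Benjamini-Hochberg adjustment. The Mthfd2 call was lost without any 1 of NOD.H-2b 2M replicates 1, 2 and 3 or 6M replicate 3 (FDRs from 0.0607 to 0.107) and with no filter on low counts (FDR 0.0610). Aldh1l2 went from 31.6 to 14.5 CPM without overlap and did not pass (log2 fold change -1.15, SE 0.43, FDR 0.0938).

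Marker levels of several cell types differed between the strains, by amounts that varied with age. The 12 epithelial markers summed, in CPM at 2M, to 1458 to 1478 in BALB/c and 1472 to 1665 in NOD.H-2b, 1528 to 1601 and 1049 to 1346 at 4M, and 1436 to 1518 and 911 to 1127 at 6M. Of these 12 markers, NOD.H-2b had 5 higher and 3 lower at 2M, 1 higher and 8 lower at 4M, and 1 higher and 9 lower at 6M. The 7 acinar markers summed to 142322 to 151978 CPM in BALB/c and 113287 to 123336 in NOD.H-2b at 2M, 118336 to 130283 and 115565 to 130141 at 4M, and 119952 to 132064 and 90536 to 109045 at 6M. They were thus lower in NOD.H-2b without overlap at 2M and 6M and overlapped at 4M, and 4, 2 and 4 of the 7 passed as lower and 1, 0 and 0 as higher. The 10 B cell markers summed to at most 2.91 CPM in any BALB/c mouse, and to 1.81 to 34.5 at 2M, 176 to 386 at 4M and 262 to 528 at 6M in NOD.H-2b. All 10 were higher at 4M and 6M. Of the T cell markers, 8 of 8 tested were higher at 2M and 9 of 9 at 4M and 6M, and Cd28 was at 0 in BALB/c at 2M. Macrophage markers were higher for 10 of 10, 9 of 10 and 9 of 10 genes, and plasma cell markers for 4, 6 and 6 of 7. Proliferation markers were higher for 9, 9 and 6 of 12 and lower for 2, 0 and 1. The 5 ductal markers summed to 940 to 1060 CPM in BALB/c and 1149 to 1339 in NOD.H-2b at 2M, where 4 were higher, and their sums overlapped at 4M and 6M. Fibroblast markers were higher for 4 of 5 at 2M and 1 of 5 at 6M and lower for 1 of 5 at 4M, and the sums at 2M were 385 to 508 and 568 to 643 CPM. Endothelial sums were higher in NOD.H-2b without overlap at all 3 ages. They were 57.2 to 63.9 against 90.5 to 96.1 CPM at 2M and 53.5 to 55.6 against 108 to 125 at 6M. Of the 4 endothelial markers, 2, 2 and 3 passed as higher at the 3 ages and 1, 0 and 0 as lower. Myoepithelial markers were lower for 1, 2 and 1 of 5. The part of these cells in the changes of the 10 genes was not tested.

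**Figure D3:**
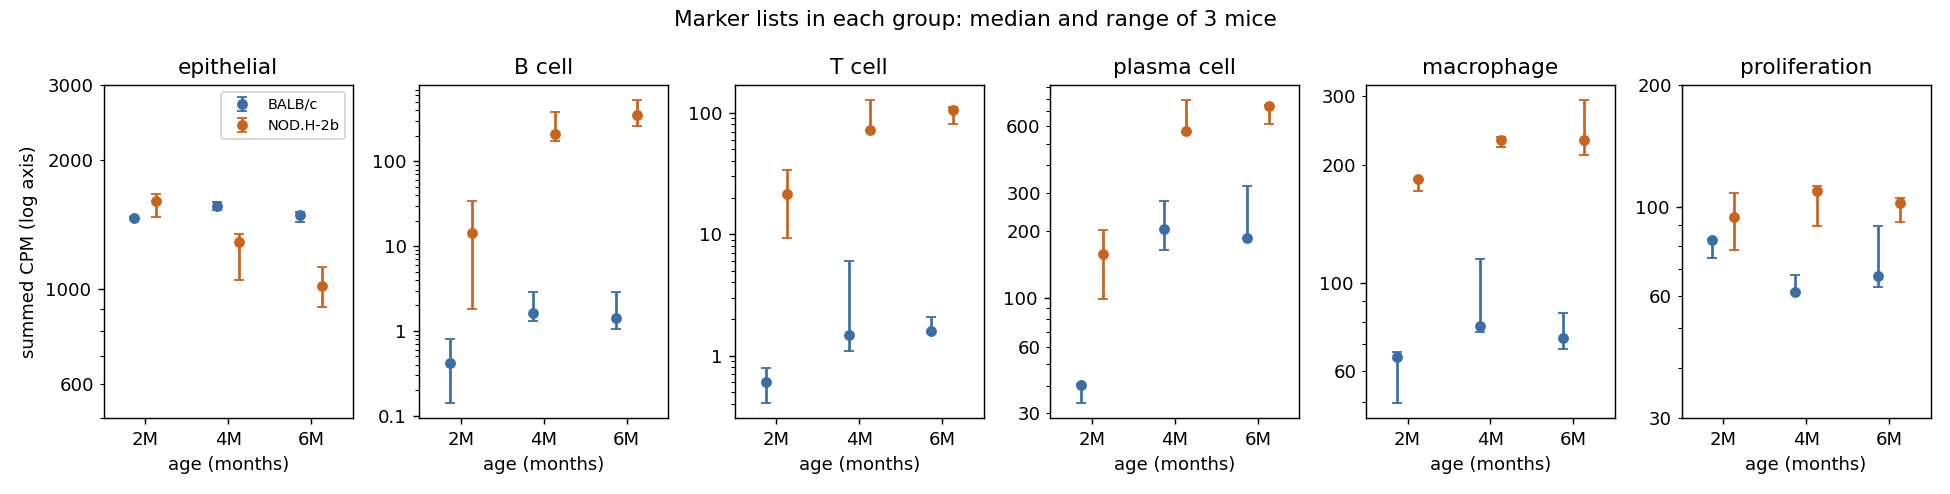
Summed CPM of 6 marker lists in each group on log axes, as the median and the range of 3 mice, against age. The epithelial sum in NOD.H-2b overlaps with that of BALB/c at 2M and lies below it at 4M and 6M, while the B cell sum reaches 262 to 528 CPM at 6M.

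To set the enzymes against the epithelial part of the gland, each CPM was divided by the summed epithelial markers of the same mouse and multiplied by 1000, a scale added after the data were seen and given with no test. Asns was then 64.6 to 68.0 in BALB/c and 38.0 to 41.7 in NOD.H-2b at 2M, 40.7 to 49.9 and 35.4 to 42.1 at 4M, and 52.3 to 59.2 and 26.3 to 32.6 at 6M. The difference in Asns thus remained without overlap at 2M and 6M and not at 4M. Aldh1l2 stayed lower without overlap at all 3 ages, at 33.6 to 38.7 in BALB/c and 7.49 to 18.6 in NOD.H-2b at 6M. Phgdh was 27.2 to 31.3 in NOD.H-2b against 39.6 to 41.2 in BALB/c at 2M, and overlapped at 4M (31.3 to 32.4 against 29.7 to 32.6) and at 6M (27.8 to 30.8 against 30.3 to 33.6). On this scale the called 4M difference of Phgdh and the called 6M differences of Mthfd1 and Psph turned to 0.04, 0.14 and 0.14 on the log2 scale. Mthfd2 was lower without overlap at 2M only. Shmt2, which overlapped as CPM, was higher in NOD.H-2b without overlap at 4M (0.48 on the log2 scale) and 6M (0.49), and Psat1 (0.88) and Psph (0.55) were higher without overlap at 4M. Differences that had not passed as CPM also turned, to 0.21 for Mthfd2 and 0.19 for Mthfd1 at 4M. Shmt1 stayed higher at all 3 ages, and Mthfd1l stayed lower at 2M and higher at 4M and 6M, with 5.22 to 8.26 against 1.33 to 1.94 at 6M. From 2M to 6M the strain difference of Asns changed by -0.18 on this scale and by -0.81 in the test on counts, while that of Mthfd1l changed by 2.55 and 1.87. These values rest on the choice of the epithelial list. The acinar sums moved otherwise, lower in NOD.H-2b at 2M and overlapping at 4M, and were not used as a divisor.

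At 6M the mouse with the lowest epithelial sum (911 CPM) and the highest B cell sum (528 CPM) was NOD.H-2b replicate 1. It was the lowest of its group in Asns, Aldh1l2, Phgdh, Mthfd2, Mthfd1, Shmt1 and Shmt2, and the highest in Mthfd1l, Psat1 and Psph. At 4M, NOD.H-2b replicate 1 had the lowest epithelial sum (1049 CPM), the highest B cell sum (386 CPM) and the highest Mthfd1l. It was the lowest of its group in Asns, Phgdh, Mthfd2, Mthfd1 and Shmt1, and lay between the others in Aldh1l2, Shmt2, Psat1 and Psph. This order within groups of 3 mice was not tested.

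Genes of the same pathways were taken from 6 lists. Beside these and the marker lists above, 22.5% of all genes tested were higher and 17.2% lower at 2M. The shares were 23.4% and 19.2% at 4M, and 28.6% and 25.8% at 6M. Of the list genes named here, Asrgl1, Gdf15, Trib3 and Cbs followed a rule, and the others were chosen after their values were seen. Of 11 tested genes of serine and glycine transport, interconversion and glycine cleavage, none was higher at any age and 4, 7 and 9 were lower at 2M, 4M and 6M. The median log2 fold change of this list was -0.15, -0.27 and -0.50, beside 0.01, 0.00 and -0.00 over all genes. Gnmt, which methylates glycine, was lower at all ages (-0.67, -0.74 and -1.09 on the log2 scale), as were the glycine transporter Slc6a9 (-0.70, -0.78 and -0.96), the neutral amino acid transporter Slc1a5 (-0.29, -0.50 and -0.53) and the mitochondrial serine transporter Sfxn1 (-0.21, -0.27 and -0.50). The cleavage system genes Amt and Gcsh were lower at 4M and 6M and did not pass at 2M.

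Of 18 other genes of the folate cycle, 3 were higher and 5 lower at 2M, 1 and 4 at 4M, and 2 and 7 at 6M, with medians of -0.07, -0.06 and -0.20. The folate receptor Folr1 was lower at 2M by 0.60 and at 6M by 2.06 on the log2 scale, and the polyglutamate enzymes Fpgs and Ggh were both lower at 4M and 6M. Tyms, the thymidylate synthase, did not pass at any age.

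Among the genes of asparagine, aspartate and glutamine metabolism, 4 were higher and 7 lower at 2M, 3 and 4 at 4M, and 1 and 7 at 6M, of 15 tested at each age, with medians of -0.03, -0.07 and -0.23. Asrgl1, an asparaginase, was the one of them past 2-fold at every age. Its CPM was 53.2, 48.6 and 47.8 in BALB/c and 9.76, 8.37 and 8.17 in NOD.H-2b at 2M, and 53.1, 54.4 and 49.9 against 11.9, 10.3 and 11.0 at 6M. Its log2 fold change was -2.47, -2.66 and -2.21 at the 3 ages, so a gene that breaks asparagine down was lower together with the gene that makes it. Nars, which charges tRNA with asparagine, was lower at each age (-0.51, -0.44 and -0.82), as was the glutamine synthetase Glul (-0.85, -0.92 and -0.65).

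Since ATF4 is known to act on Asns, Phgdh, Psat1 and Mthfd2, 28 genes of the amino acid response were listed beside them, and 26 were tested. Of these, 6 were higher and 4 lower at 2M, 7 and 6 at 4M, and 5 and 10 at 6M, with medians of 0.01, 0.01 and -0.05, so the list did not move one way. The RNA of Atf4 itself did not pass at any age (-0.18, -0.04 and -0.23 on the log2 scale), and ATF4 protein was not measured here. Trib3, a target of the factor CHOP, had 0.688, 1.06 and 0.705 CPM in BALB/c and 7.76, 5.92 and 7.01 in NOD.H-2b at 2M, with log2 fold changes of 3.11, 2.09 and 1.56 at the 3 ages. Gdf15, a stress-induced cytokine, was higher by 3.85, 3.55 and 2.62 on the log2 scale, from at most 0.554 CPM in any BALB/c mouse. Ddit3, which encodes CHOP, was higher at each age (0.73, 0.83 and 0.95). Aldh18a1, the first enzyme of proline synthesis, went with Asns and was lower at each age (-0.55, -0.66 and -1.06).

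Of the 20 cytosolic aminoacyl-tRNA synthetases, 3 were higher and 12 lower at 2M, none higher and 4 lower at 4M, and 1 higher and 15 lower at 6M, with medians of -0.17, -0.13 and -0.41. The methionine and transsulfuration list had 10 tested genes, with 2 higher and 2 lower at 2M, 2 and 3 at 4M, and 3 and 5 at 6M. Cbs, which joins serine to homocysteine, had 1.36, 1.49 and 1.46 CPM in BALB/c and 9.65, 7.89 and 17.1 in NOD.H-2b at 2M, and 2.72, 2.13 and 1.59 against 12.0, 11.3 and 17.1 at 6M. It was higher by 3.05, 3.60 and 2.66 on the log2 scale at the 3 ages. Cth, the next step after Cbs and also on the ATF4 list, was lower at 4M (-0.35) and 6M (-0.50), so the neighbouring steps of transsulfuration differed in opposite directions. All calls of these lists are at an FDR under 0.05 in the edgeR quasi-likelihood test after Benjamini-Hochberg adjustment over all genes.

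**Figure D4:**
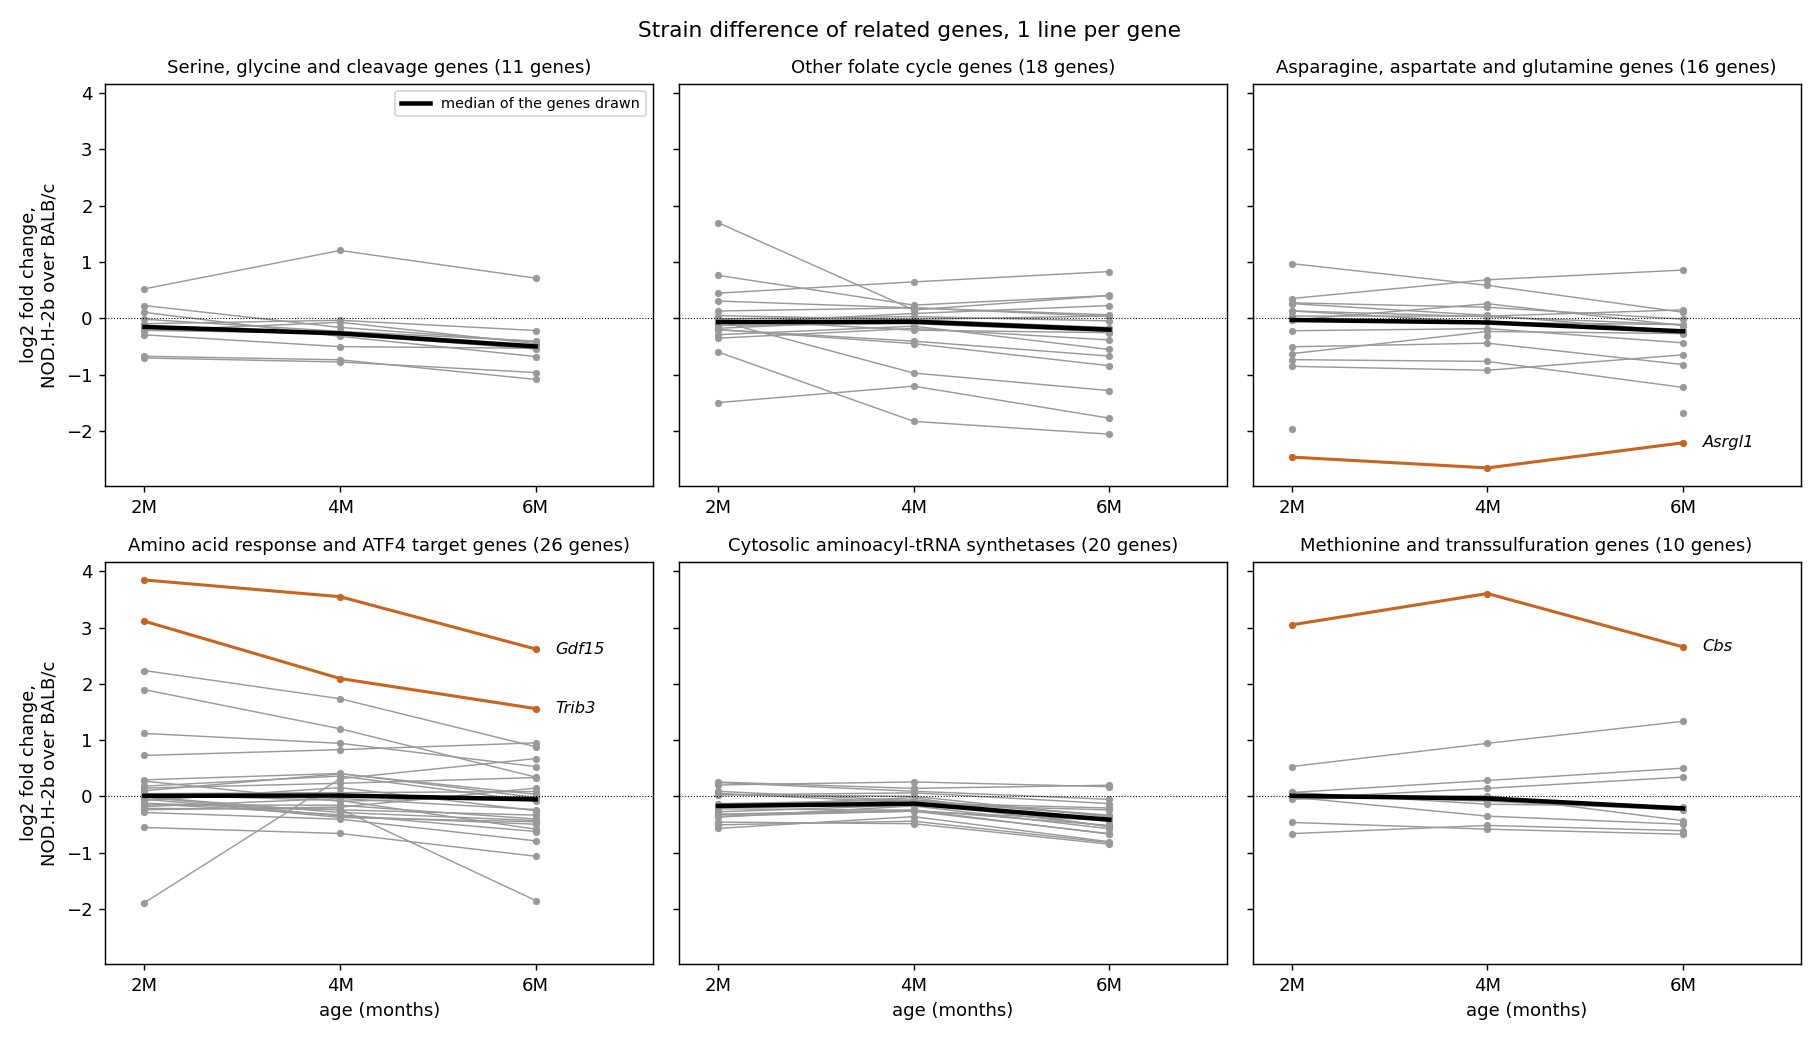
Log2 fold change of NOD.H-2b over BALB/c at 2M, 4M and 6M for each gene of 6 related lists, 1 line a gene, with the median in black; the labelled genes in orange are named in the text and passed at an FDR under 0.05 and 2-fold in one direction at all ages. Cbs, Gdf15 and Trib3 stand above 0, Asrgl1 below, while the medians lie between -0.50 and 0.01.

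Some of the enzymes varied together among mice of the same group. Deviations of log2 CPM from the mean of each group correlated over the 18 mice with r = 0.87 for Asns and Phgdh, 0.83 for Asns and Aldh1l2, 0.76 for Asns and Mthfd2 and 0.74 for Phgdh and Aldh1l2. The Spearman rank correlations of these pairs were lower, at 0.78, 0.73, 0.61 and 0.68. The largest deviation of Aldh1l2 was that of NOD.H-2b 6M replicate 1 (-0.94). Psat1 and Psph did not share this pattern with Phgdh (r = -0.28 and 0.03). Psat1 deviated most like Mthfd1l (r = 0.62), and Mthfd1l went against Phgdh (r = -0.50). Shmt1, although its strain difference was opposite, deviated with Mthfd1 (r = 0.81) and Mthfd2 (r = 0.67). These 45 pairs are described with no test, and the mice of a group differed in their epithelial and B cell sums as given above.

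**Figure D5:**
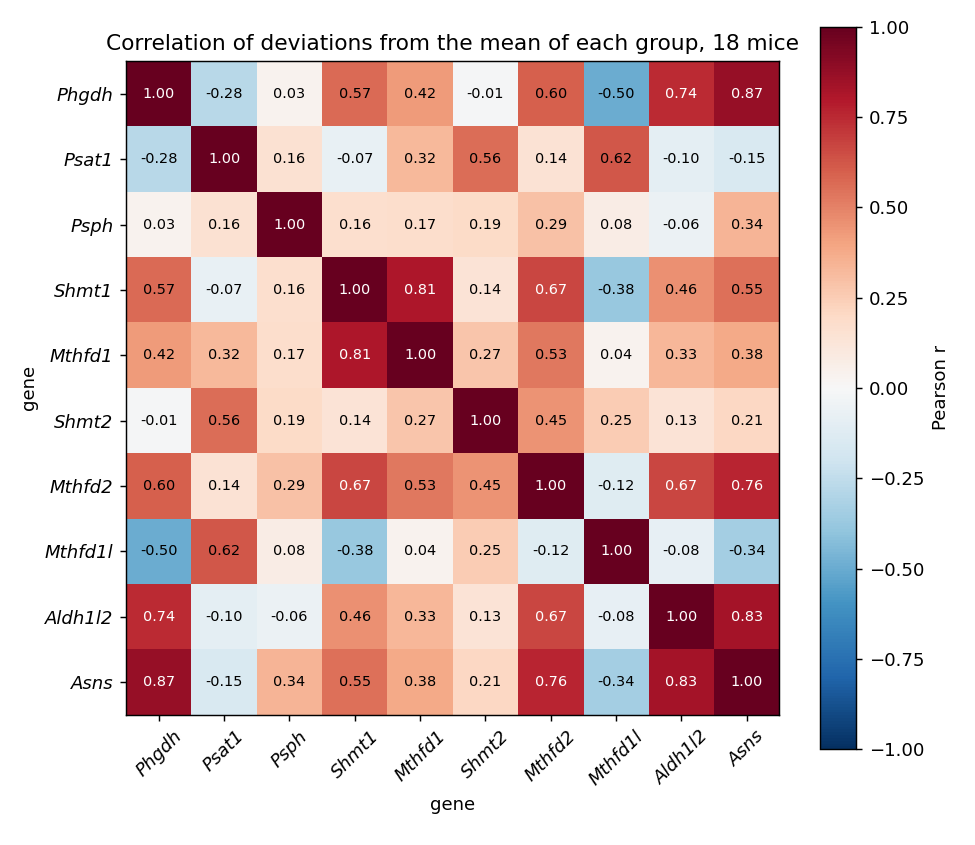
Pearson correlation, over 18 mice, of the deviations of log2 CPM from the mean of each of the 6 groups, for each pair of the 10 genes; red is positive and blue negative. Asns, Phgdh, Aldh1l2 and Mthfd2 correlate with each other at 0.60 to 0.87, and Mthfd1l is at -0.50 with Phgdh.

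Among 7923 other genes whose average log2 CPM reached 3, those most like Asns over the 18 mice were Spop (r = 0.981), P4hb (r = 0.980) and Hbs1l (r = 0.980). P4hb encodes protein disulfide isomerase of the endoplasmic reticulum, Hbs1l acts in ribosome rescue and Spop is a ubiquitin ligase adaptor. The genes most like Phgdh were Hid1 (r = 0.983), Slc39a9 (r = 0.976) and Hbs1l (r = 0.974). Hid1 acts in the sorting of secretory granule content and Slc39a9 is a zinc transporter. All 5 of these genes had smaller strain differences than Asns, with log2 fold changes at 6M between -0.41 and -0.68. These correlations run over groups that differ in strain and age, so the likeness includes the group differences themselves, and its n is 18 mice.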

How the data were processed

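Bulk RNA-seq was made from rRNA-depleted total RNA of the LG of 18 male mice, 3 in each of 6 groups of strain and age, and groups were taken from the labels. The authors used cutadapt for trimming, STAR for alignment of the paired-end reads to GRCm38, and HTSeq for the count per Ensembl gene. The deposited count table held 54232 genes and was used as it stood. Their versions, whether strand was used, how multiply matching reads were handled and which annotation was counted are not given in the sources used here. A further deposited table of log2 values of scaled counts was not used.

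Counts were scaled by TMM and tested in edgeR 4.0.16 (R 4.3.3, limma 3.58.1) with the robust quasi-likelihood test after filterByExpr. P-values were adjusted by Benjamini-Hochberg over all genes tested. Strain was tested on the 6 mice of each age, age on the mice of a strain, and the change of the strain difference with age in a fit of 18 mice (19117 genes). A gene passed at an FDR under 0.05, and a DEG also changed at least 2-fold. CPM used TMM over the 18 mice, and log2 CPM a pseudocount of 0.1. RPKM used the union of GENCODE M21 exons, whose names and coordinates matched 54079 gene IDs. Promoter windows came from RefSeq. A standard error is the log2 fold change divided by the root of F. The code was tested on simulated data.

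The 10 genes and the lists were chosen with earlier results of these data known. Asrgl1, Gdf15, Trib3 and Cbs were named by a rule: past the FDR and 2-fold in one direction at all 3 ages, at most 3 a direction by mean change. The other list genes named were chosen after their values were seen. For Asns and Phgdh, the 3 genes with the highest correlation of log2 CPM were named. Alternatives were DESeq2 1.42.0, its size factors or the upper quartile in edgeR, no filter, at least 10 counts in every sample, a replicate block, one fit of all mice, and leaving out each mouse. Levels relative to the epithelial marker sum were added after the data were seen. Some single genes of the lists are counted in them but not reported here by name. No RefSeq protein sequences were used here.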

Additional observations from a re-analysis of the deposited data

Results flagged for a closer look

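The strain differences of 2 of the 10 genes, Mthfd1l and Asns, changed with age in 3 tests of that change itself, in a fit of all 18 mice in the edgeR quasi-likelihood test after Benjamini-Hochberg adjustment. The difference of Mthfd1l, as NOD.H-2b over BALB/c, moved by 1.56 on the log2 scale (SE 0.27, FDR 0.00639) from 2M to 4M. From 2M to 6M it moved by 1.87 (SE 0.27, FDR 0.000683). The difference of Asns moved by -0.81 (SE 0.18, FDR 0.00786) from 2M to 6M. These tests passed without any 1 of the 18 mice and under the 6 other settings of the count test. Relative to the epithelial marker sum, given with no test, the change of Asns was -0.18 and that of Mthfd1l from 2M to 6M was 2.55. Groups held 3 mice, too few for a test of single outlying mice.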

How the results depend on the processing

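The number of the 10 genes that passed stayed within 1.5 times the reported count under every setting other than leaving out a mouse for the strain comparisons, for the change of the strain difference from 2M to 6M, and for NOD.H-2b from 2M to 6M. For the change from 2M to 4M, DESeq2 called 2 genes in place of 1. For BALB/c, one fit of all mice called 3 in place of 6 from 2M to 4M. From 4M to 6M, no filter called 3, DESeq2 1 and the replicate block 1 in place of 0. From 2M to 6M, no filter called 4, DESeq2 2, the replicate block 2 and one fit of all mice 0 in place of 1. For NOD.H-2b, no filter called 4 and the replicate block 0 in place of 2 from 2M to 4M, and the replicate block and one fit of all mice each called 3 in place of 0 from 4M to 6M. The cause was not tested. Leaving out 1 mouse gave 5 to 7 calls at 2M, 4 to 6 at 4M and 6 to 8 at 6M between strains, 1 to 2 and 2 to 3 for the changes from 2M to 4M and to 6M, 4 to 6, 0 to 1 and 1 to 3 within BALB/c (2M to 4M, 4M to 6M, 2M to 6M), and 0 to 3, 0 and 4 to 6 within NOD.H-2b.

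Leaving out 1 mouse gave -0.0469 to 0.103 for Shmt2 at 2M, -0.296 to 0.0157 for Mthfd2 at 4M and -0.117 to 0.0474 for Shmt2 at 6M, on the log2 scale. Shmt2 at 6M was at 0.0157 with at least 10 counts in every sample. Relative to the epithelial sum, Phgdh at 4M was at 0.0447, Psph at 6M at 0.136 and Mthfd1 at 6M at 0.142, all 3 with overlap, and differences that had not passed turned to 0.485 for Shmt2 and 0.195 for Psat1 at 6M and to 0.214 for Mthfd2 and 0.190 for Mthfd1 at 4M. No scaling moved the median of all genes by more than 0.1.

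The labels do not say whether equal replicate numbers pair the mice, and the mice were treated as unpaired. Same-numbered mice deviated together with r from -0.339 to 0.344, over 0.1 in 3 of 27 pairs and in all pairs of 0 of 9 comparisons. With 3 mice a group, these correlations cannot exclude a pairing. With the replicate block, Psph (FDR 0.0684) and Aldh1l2 (log2 fold change -1.93, FDR 0.0844) at 6M, the 2M to 4M changes of Mthfd1l (FDR 0.0868) and Asns (FDR 0.0833) and the 2M to 6M change of Mthfd2 (FDR 0.0567) within NOD.H-2b did not pass in edgeR. Over all genes the block took the calls in NOD.H-2b from 2799 to 308 (2M to 4M), from 1 to 594 (4M to 6M) and from 7211 to 4561 (2M to 6M). Psat1, Psph, Shmt1 and Mthfd1l lay under 8 CPM in every mouse. The largest standard error of a strain difference was that of Aldh1l2 at 6M (0.42).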
